A study of Mus musculus with 6 samples.

Results

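The constitutive proteasome genes were taken as the genes of the count table whose symbol starts with Psma to Psmg followed by a number, leaving out the immunoproteasome subunits Psmb8, Psmb9 and Psmb10. The rule found 45 of 45808 genes, and 43 of them passed the filter on low counts and were tested. The rule uses symbols alone, but it was chosen with earlier results of these data known. The other 2, Psma8 and Psmb11, were barely detected.

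The proteasome is the protease that breaks down proteins tagged with ubiquitin. Its 20S core is a stack of rings made of alpha subunits, which gate the entry, and beta subunits, some of which cut the substrate. The 19S cap recognises, unfolds and threads the substrate into the core, PA28 and PA200 are alternative caps, and dedicated chaperones build each part. In adipocytes the transcription factor Nfe2l1 is known to drive proteasome genes, and in brown fat that activity is known to help cells stay heat-producing.

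RNA was measured in 6 libraries from wild-type (WT) stromal-vascular cells, the mixed fraction of fat tissue that holds adipocyte precursors, taken from the inguinal white fat pads of male mice at 8 weeks of age. Day 0 (2 libraries) was the confluent culture with no inducer. Day 2 (2 libraries) followed 2 days with rosiglitazone at 1 µM, T3 at 1 nM, indomethacin at 125 µM, dexamethasone at 5 µM, IBMX at 0.5 mM and insulin at 850 nM. Day 6 (2 libraries) followed the same induction and then 4 days in which only rosiglitazone, T3 and insulin were kept, at unchanged doses. The 2 libraries of a day carry the numbers 76 and 77, called biological replicates by the series, and what these mark (a mouse, a culture or something else) was not given in the sources used here. Hence a p-value here rests only on the distance between the 2 libraries of a day, which may be technical. The fit pooled that spread over the 3 days and over genes, so the spread at day 6 also enters the p-values of day 2 against day 0. No uninduced library of day 2 or day 6 was analysed here, so time in culture and the inducers cannot be told apart.

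Between 22522221 and 29458374 reads per library were counted in genes. Libraries of 1 day differed by more than counting noise on every day, most at day 6 (chi-square per degree of freedom 19.8, against 5.32 and 5.85 at days 0 and 2). The summed level of 6 adipocyte markers was 88.0, 3753 and 27700 CPM (a gene's count relative to its library's total after TMM scaling) at days 0, 2 and 6, with Lep at 0 until day 2, and that of 6 progenitor markers was 1687, 1281 and 830. Summed macrophage markers ranged from 25.02 to 108 CPM with the highest value in library 76 of day 6. Endothelial markers ranged from 6.12 to 32.7, mural from 10.7 to 75.8 and Schwann from 1.11 to 5.30. Skeletal muscle markers ranged from 0.791 to 12.02 and T and B cell markers from 0.108 to 0.329, with Cd3e, Cd3d, Cd8a and Myf5 at 0 in every library. At days 0, 2 and 6 the means were 31.0, 6.17 and 13.7 for endothelial and 73.1, 10.9 and 40.0 for mural markers. They were 4.645, 1.70 and 2.85 for Schwann, 11.8, 1.79 and 2.185 for skeletal muscle, and 39.8, 37.45 and 76.6 for macrophage markers. In such bulk samples, fewer cells of a type and less RNA per cell cannot be told apart, and the part of a changing cell mixture in the values below was not tested.

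Nearly the whole proteasome gene set was higher after 2 days of induction, and it was still higher at day 6. Of the 43 tested members, 37 rose from day 0 to day 2 and 1 fell (adjusted p under 0.05, edgeR), where 33.6% of all genes tested rose and 33.6% fell. The members' median log2 change was 0.59, beside 0.00 over all genes tested. From day 0 to day 6, 39 rose and none fell, beside 35.9% and 35.1% of all genes, with a median of 0.71 beside -0.01. Counts of higher members stayed between 36 and 40 at day 2 and between 33 and 39 at day 6 under all 11 alternative analyses, and 36 of the 37 and 33 of the 39 calls were kept in every one. The 1 fall, of Psme1, was lost under 8 of them. At day 6 no member was lower by edgeR, by DESeq2 or at an unadjusted edgeR p under 0.05, where the count was also 0. A difference between any of the days was found for 41 of the 43, beside 84.8% of all genes.

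Between day 2 and day 6 members were called in both directions, and the members' median lay near that of all genes. With TMM scaling 18 members rose and 3 fell (38.2% and 27.5% of all genes), and 22 were not called, with a median of 0.09 beside 0.12 for all genes. With library totals alone as the scale, the median of all genes was -0.23 and that of the members -0.27, and the split was 8 higher and 26 lower. Leaving out library 77 of day 0 gave 11 higher and 7 lower, and leaving out library 76 of day 2 gave 1 lower. The calls kept under all 11 alternatives were the rises of Psma1, Psma6, Psmb5, Psmb7, Psmd4, Psmd8, Psme1 and Psme2 and the fall of Psmg2. Under library totals the median of all genes was 0.12 for day 2 and -0.26 for day 6 against day 0, where the members' medians were 0.71 and 0.46.

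Summed over all members, the level was 3204 ± 29.7 CPM (SD, n = 2 for this and every later mean) at day 0, 4951 ± 64.8 at day 2 and 6081 ± 294 at day 6. As a share of all reads counted in genes, with no scaling factor, they took 0.331% ± 0.0059, 0.552% ± 0.0105 and 0.528% ± 0.0076. Both measures put the days 2 and 6 above day 0 in every library, while day 6 lay above day 2 on the first and below it on the second.

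By the calls of the successive steps, which share the day 2 libraries, 14 members rose at both, 21 rose by day 2 and were not called afterwards, and 2 rose and then fell (Psme3 and Psmg2). Psme1 fell and then rose. Psmd8, Psmd10 and Psmf1 were not called at day 2 and rose later, Psmg4 was not called and then fell, and Psmc3 was called at neither step. These patterns rest on the main fit, and no share of all genes was counted for them. Of the later rises, only the 8 named above were kept under all 11 alternatives. Lost most often were those of Psmd13 (under 9), Psmd5 (under 8), and Psmd10 and Psmd12 (under 6 each). The day 2 fall of Psme1 was lost under 8.

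**Figure D1:**
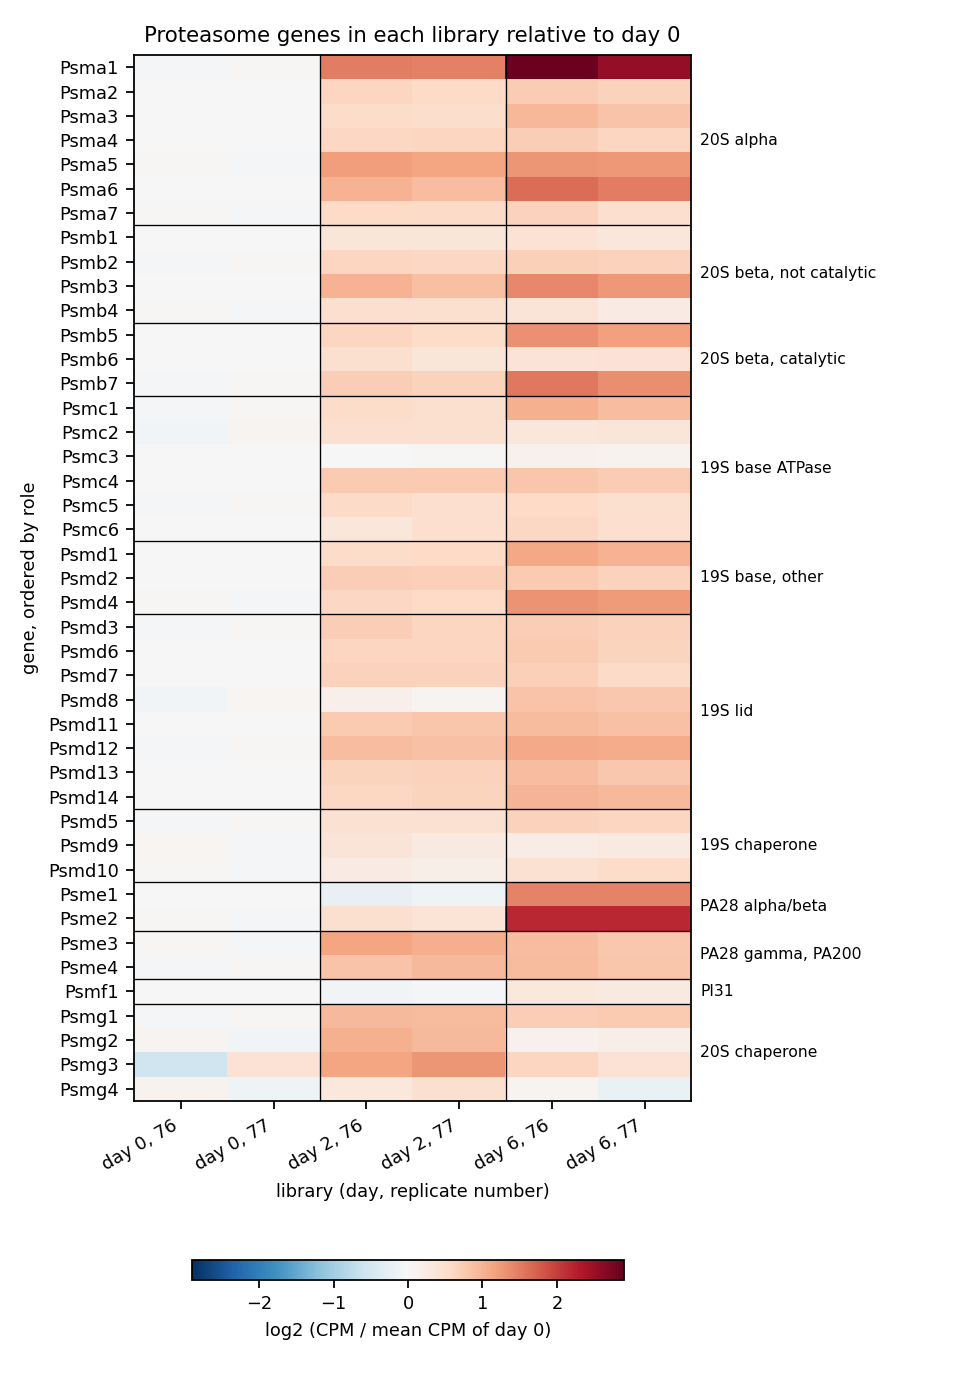
Level of each of the 43 tested proteasome genes (vertical axis, ordered by role) in each of the 6 libraries (horizontal axis), as the log2 ratio of its CPM to the day 0 mean, with red for higher and blue for lower. Nearly every gene is red at days 2 and 6, Psma1 and Psme2 are the darkest at day 6, and Psmc3 stays pale in every library.

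The 5 promoters below belong to members on which the results turn: Psma1, with the largest rise of the core, Psma5, next after it at day 2, Psmd12, with the largest rise of the 19S lid at day 2, and the PA28 partners Psme1 and Psme2. Each runs 5′ to 3′ on the gene's strand over 300 bases, from 250 before to 50 after the RefSeq start in GRCm38.p6. Capitals mark matches, on either strand, to the core of the antioxidant response element that Nfe2l1 and Nfe2l2 bind (TGANNNNGC), to the CCAAT box bound by NF-Y (CCAAT), or to the core of the interferon-stimulated response element (GAAA, any 2 bases, then GAAA). The windows are chr7:114276067-114276366 (minus strand) for Psma1, chr3:108256676-108256975 (plus) for Psma5, chr11:107479278-107479577 (plus) for Psmd12, chr14:55578244-55578543 (plus) for Psme1 and chr14:55591052-55591351 (minus) for Psme2.
Psma1, 2 CCAAT matches: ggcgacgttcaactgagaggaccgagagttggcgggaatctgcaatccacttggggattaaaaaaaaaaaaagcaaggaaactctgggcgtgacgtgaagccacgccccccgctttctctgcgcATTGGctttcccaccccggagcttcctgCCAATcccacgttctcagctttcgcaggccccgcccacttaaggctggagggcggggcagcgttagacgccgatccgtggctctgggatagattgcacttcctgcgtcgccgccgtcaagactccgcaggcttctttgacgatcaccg
Psma5, 1 antioxidant core: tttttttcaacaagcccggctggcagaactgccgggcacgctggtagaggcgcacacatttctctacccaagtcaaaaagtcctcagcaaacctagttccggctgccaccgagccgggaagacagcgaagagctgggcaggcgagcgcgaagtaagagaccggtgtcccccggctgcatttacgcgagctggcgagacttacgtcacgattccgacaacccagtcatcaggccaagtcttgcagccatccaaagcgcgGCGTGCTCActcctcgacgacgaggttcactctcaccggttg
Psmd12, 2 antioxidant cores: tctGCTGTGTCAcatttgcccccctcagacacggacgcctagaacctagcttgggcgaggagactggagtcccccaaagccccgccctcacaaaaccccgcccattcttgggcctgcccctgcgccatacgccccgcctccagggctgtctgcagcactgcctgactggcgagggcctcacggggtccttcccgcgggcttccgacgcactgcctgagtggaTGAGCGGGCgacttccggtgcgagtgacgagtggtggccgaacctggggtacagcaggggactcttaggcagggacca
Psme1, 1 interferon core: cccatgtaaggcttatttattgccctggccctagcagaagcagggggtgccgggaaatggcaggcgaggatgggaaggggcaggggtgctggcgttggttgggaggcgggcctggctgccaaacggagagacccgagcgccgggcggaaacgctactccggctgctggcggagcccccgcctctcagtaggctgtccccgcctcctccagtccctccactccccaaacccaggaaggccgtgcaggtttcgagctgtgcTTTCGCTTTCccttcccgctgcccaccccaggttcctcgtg
Psme2, 1 antioxidant core: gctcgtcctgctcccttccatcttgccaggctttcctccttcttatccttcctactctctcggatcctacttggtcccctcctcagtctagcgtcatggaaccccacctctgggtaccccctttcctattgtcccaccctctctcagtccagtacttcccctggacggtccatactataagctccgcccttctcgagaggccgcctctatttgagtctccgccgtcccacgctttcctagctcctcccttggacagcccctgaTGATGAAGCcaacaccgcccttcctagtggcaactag

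No match overlaps another in these windows, and each is a match of letters, not a shown binding site. RefSeq promoters were found for 37 of the 45 members, and the motifs were chosen after earlier results were known. The antioxidant core was in 20 of the 37 (54.1%), beside 41.3% of all 32851 promoters, the CCAAT box in 13 (35.1%, beside 37.4%) and the interferon core in 5 (13.5%, beside 3.44%). The bases differ: each member has a single promoter, that nearest its annotated start, while a gene with several starts counts repeatedly among all promoters. Members holding the antioxidant core had a median log2 change at day 2 of 0.56 (19 tested), and those without it 0.59 (17 tested). For the CCAAT box these medians were 0.59 (12 tested) and 0.57 (24 tested). For the interferon core they were 0.39 (5 tested) and 0.59 (31 tested). Any part of these motifs in the changes was not tested. The interferon core was found in Psmb3, Psmd4, Psmd9, Psme1 and Psmg4, whose changes at day 2 ranged from -0.18 (Psme1) to 0.93 (Psmb3).

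All 14 subunits of the 20S core rose by day 2 and were higher at day 6 than at day 0, with medians of 0.60 and 0.80 on the log2 scale. Their summed level was 1140 ± 1.10 CPM at day 0, 1870 ± 46.3 at day 2 and 2448 ± 176 at day 6. Of the 7 alpha subunits, which form the outer rings, all rose at day 2, by log2 changes of 0.52 (Psma3) to 1.48 (Psma1).

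Psma1, an alpha ring subunit, stood at 69.4 and 73.5 CPM on day 0 (libraries 76 and 77), at 200.1 and 198 on day 2 and at 514 and 419 on day 6. No library of a day overlapped any of another day. The log2 change was 1.48 (SE 0.11, adjusted p = 8.02e-06) at day 2 and 2.71 (SE 0.11, adjusted p = 2.11e-07) at day 6, or 6.54-fold, the largest of the 43 tested members in both comparisons with day 0. The later step added 1.23 (SE 0.10, adjusted p = 1.62e-05), and 0.87 under library totals.

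Psma1 took 6.26% ± 0.249 of the reads of the 14 core subunits at day 0, 10.7% ± 0.18 at day 2 and 19.01% ± 1.39 at day 6. Each subunit is present in the assembled core in the same number. Without Psma1, the other 13 summed to 1069 ± 1.81, 1671 ± 44.8 and 1982 ± 109 CPM. Their unscaled share of reads was 0.110% ± 0.00075, 0.186% ± 0.00608 and 0.172% ± 0.00362, so the direction of the later step depended on the scale. Per kilobase of its principal transcript, Psma1 ranked 10 among the 14 at day 0 (59.5 CPM per kb), 2 at day 2 (166 ± 1.30) and 1 at day 6 (389 ± 56.1). Its day 6 libraries differed more from each other, 514 against 419, than those of most members.

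The gene lies on the minus strand of chromosome 7, at 114264606 to 114276118 in GRCm38 (GENCODE M21). No exon of another gene overlaps its exons and none of its stretches of 50 bases occurs in another annotated transcript. Copb1, a coat protein gene 9894 bases away, stood at 167 and 158 CPM on day 0, 170 and 183 on day 2 and 186 and 184 on day 6. It was called higher at day 6 against day 0, by 0.19 on the log2 scale (adjusted p = 0.0498), and in no other comparison. Pde3b, a phosphodiesterase gene that starts 139162 bases from Psma1 on the other strand and is known as an adipocyte gene, went from 10.2 and 11.4 CPM on day 0 to 347 and 307 on day 2 and 845 and 678 on day 6. A non-coding gene between them, 4933406I18Rik, had 3 and 0 counts on day 0, 14 and 12 on day 2 and 68 and 67 on day 6. Cyp2r1, a vitamin D hydroxylase gene farther off on the same side as Pde3b, stood at 1.82 and 1.73 CPM on day 0, 2.07 and 1.55 on day 2 and 2.81 and 2.59 on day 6, and was called in no comparison. These neighbours were chosen after their values were seen, and any relation to Psma1 was not tested.

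**Figure D2:**
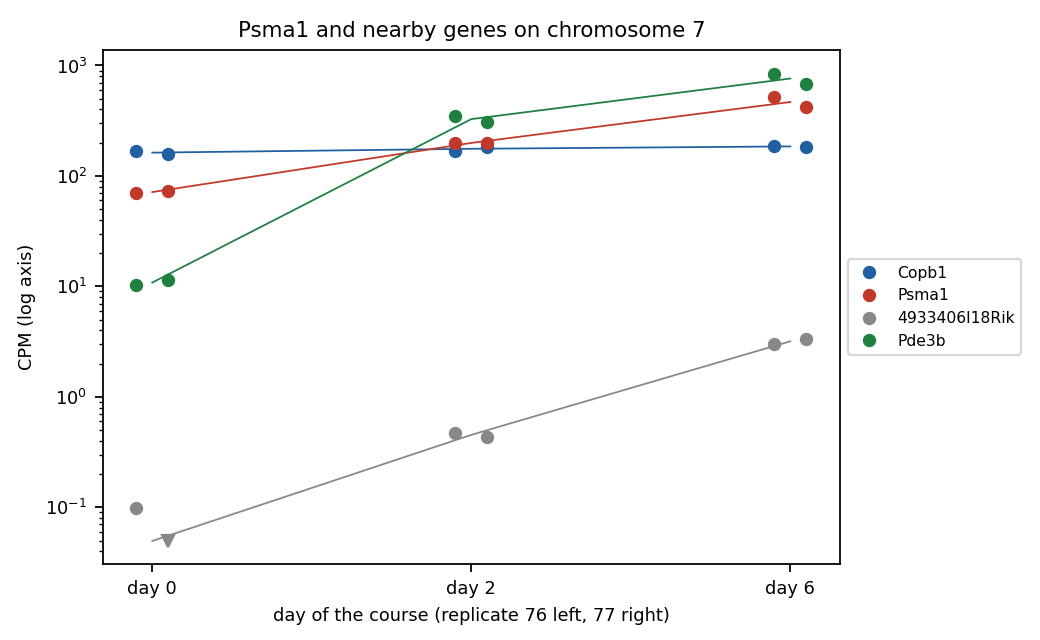
Level in CPM (vertical log axis) of Psma1 and 3 of the genes near it on chromosome 7 at each day (horizontal axis). Points are single libraries, lines join the day means, and the triangle marks a library with 0 counts of 4933406I18Rik, drawn at the foot of the axis. Psma1, Pde3b and 4933406I18Rik climb at each step, and Copb1 lies between 158 and 186 CPM throughout.

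Psma3, the alpha subunit that changed least at day 2, stood at 107 and 108 CPM on day 0, 155 and 152 on day 2 and 210 and 190 on day 6. The days did not overlap, and its log2 change was 0.52 (SE 0.07, adjusted p = 0.000348) at day 2 and 0.90 at day 6. Its later rise of 0.38 was 0.03 under library totals, where it was not called. Psma5 rose by 1.18 at day 2 and Psma6 by 0.94, and both were among the alpha subunits with the largest changes at day 6 too (1.26 and 1.55). For Psma5, 49.96% of stretches of 50 bases also occur in other annotated transcripts, led by Gm8394, so its count may be incomplete.

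Among the 4 beta subunits without a cutting site, Psmb3 changed most and Psmb1 least at day 2, while Psmb4 had the smallest change at day 6 against day 0 (0.31). Psmb3 stood at 72.2 and 72.8 CPM on day 0, 145 and 132 on day 2 and 190 and 173 on day 6, with log2 changes of 0.93 (SE 0.08, adjusted p = 2.09e-05) and 1.33 against day 0. Psmb1 stood at 112 and 113 CPM on day 0, 142 and 142 on day 2 and 149.7 and 140.5 on day 6. Its days 2 and 6 overlapped, and both lay above day 0, by 0.34 (SE 0.07, adjusted p = 0.00218) and 0.37 on the log2 scale. The day 6 call of Psmb1 was lost under library totals (0.12, adjusted p = 0.136), as were those of Psmb4 and Psmb6.

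The 3 catalytic subunits shared the rise at day 2 and parted afterwards. Psmb5, which carries the chymotrypsin-like activity and is the main target of bortezomib, stood at 34.7 and 34.9 CPM on day 0, 54.0 and 50.4 on day 2 and 87.7 and 79.2 on day 6. Its days did not overlap, and the log2 change was 0.58 (SE 0.08, adjusted p = 0.000227) at day 2 and a further 0.68 (SE 0.08, adjusted p = 8.29e-05) by day 6. Of its stretches of 50 bases, 54.1% also occur elsewhere, led by Gm3375, the largest share among the members.

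Psmb7, with the trypsin-like activity, followed the same course: 81.8 and 84.7 CPM on day 0, 136 and 132 on day 2 and 240 and 213 on day 6. It rose by 0.69 (SE 0.08, adjusted p = 0.000114) and then by 0.76 (SE 0.08, adjusted p = 6.02e-05). Part of the exons of Psmb7 (11.8%) overlaps Nek6 on the other strand, and the use of strand in counting was not given. Psmb6, with the caspase-like activity, stood at 81.0 and 78.9 CPM on day 0, 111 and 103 on day 2 and 106 and 106 on day 6. It rose by 0.42 (SE 0.07, adjusted p = 0.000718) at day 2, and its day 6 libraries lay between the day 2 libraries (log2 -0.01, adjusted p = 0.917, 0.05 without library 76 of day 2, and called at -0.37 under library totals). Psmb6 and Psmb7 thus went from 79.9 ± 1.52 and 83.2 ± 2.07 CPM at day 0 to 106 ± 0.118 and 226 ± 19.5 at day 6. A test of the difference between the subunits was not run.

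Per kilobase, the 14 core subunits spanned 29.4 (Psma2) to 111 CPM per kb (Psmb4) at day 0, a range of 3.78-fold. At day 2 it ran from 44.4 (Psma2) to 181 (Psmb3), or 4.07-fold. At day 6 it ran from 47.8 (Psma2) to 389 (Psma1), or 8.13-fold, and 5.08-fold when Psma1 was left out. Psma2 and Psma3, the lowest on every day, have the longest principal transcripts of the 14 (2911 and 2846 bases), so their levels per kilobase depend on that choice of transcript.

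**Figure D3:**
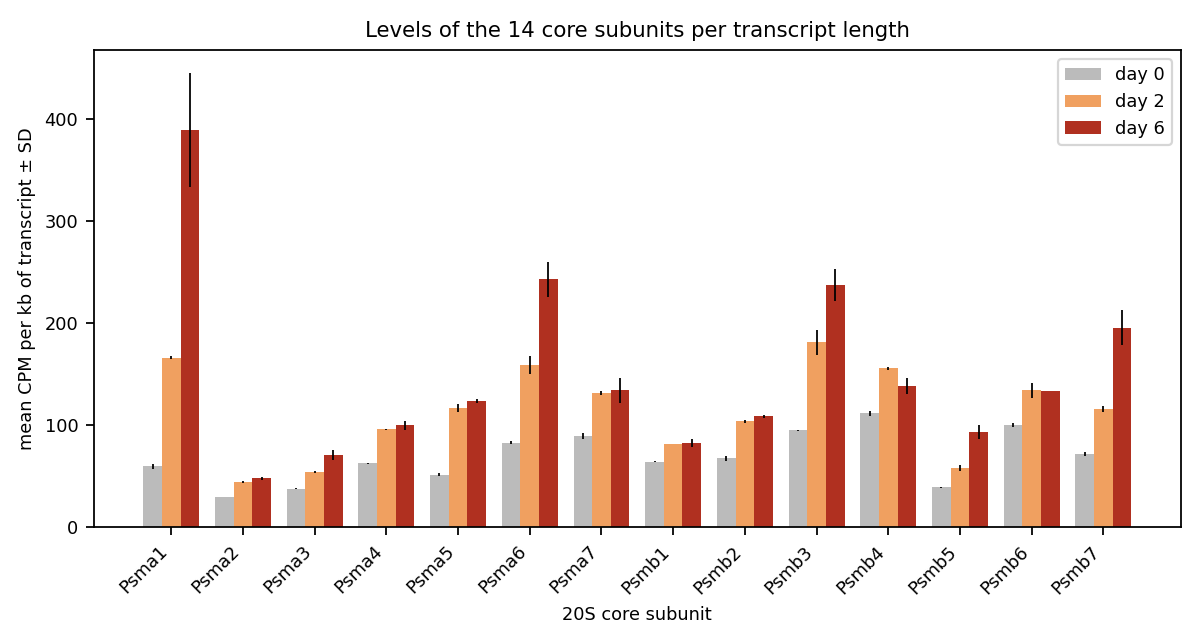
Mean level of each of the 14 core subunits (horizontal axis) in CPM per kb of principal transcript (vertical axis) at days 0, 2 and 6, with bars for the mean and lines for the SD of 2 libraries. The subunits lie between 29.4 and 111 at day 0, and Psma1 stands at 389 at day 6.

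The thymus subunit Psmb11 had 1 count in library 77 of day 2 and 0 in the other 5 libraries, where 3 counts would be 0.0993 to 0.1496 CPM. Psma8, the alpha subunit of male germ cells, had between 2 and 12 counts per library on every day.

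Of the 17 subunits of the 19S cap, 15 rose by day 2 and 16 were higher at day 6 than at day 0, with medians of 0.61 and 0.77. The other 2 at day 2 were Psmc3 and Psmd8, and the exception at day 6 was Psmc3. The day 6 call of Psmc2 was lost under library totals (0.10, adjusted p = 0.309). In CPM the 17 summed to 1652 ± 32.4, 2436 ± 14.7 and 2796 ± 104, while their unscaled share of reads was 0.170% ± 0.00479, 0.272% ± 0.00323 and 0.243% ± 0.000745, lower at day 6 than at day 2. Their levels per kilobase kept a range of 3.55-, 3.68- and 3.35-fold at days 0, 2 and 6, with Psmd2 the highest each time (147 ± 5.56 at day 6, beside 146 ± 2.30 for Psmd8).

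The base of the cap holds a ring of 6 ATPases that unfold the substrate. Psmc4 had the largest change of them at day 2, with 71.1 and 72.9 CPM on day 0, 122 and 123 on day 2 and 125 and 120 on day 6. It rose by 0.77 (SE 0.06, adjusted p = 1.75e-05), and its days 2 and 6 overlapped. Psmc3 was the member with the smallest change at day 2: 116 and 117 CPM on day 0, 117 and 119 on day 2 and 126 and 124 on day 6. Its log2 changes were 0.02 at day 2 (adjusted p = 0.761) and 0.11 at day 6 (SE 0.06, adjusted p = 0.158, and -0.14 under library totals). Against 4 other ATPases of the ring with changes of 0.41 to 0.52 at day 2, Psmc3 had a day 2 mean of 118 ± 1.24 beside 116 ± 0.763 at day 0. Part of the exons of Psmc3 (8.25%) overlaps Slc39a13 on the other strand, and the use of strand in counting was not given in the sources used here.

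Scaffolds and ubiquitin receptors make up the 3 further base subunits, and all 3 rose. Psmd2, a large scaffold that docks shuttle proteins, stood at 265 and 266 CPM on day 0, 436 and 428 on day 2 and 446 and 422 on day 6. It rose by 0.70 (SE 0.08, adjusted p = 6.59e-05) at day 2, and its days 2 and 6 overlapped. Psmd1, the other scaffold, stood at 114 and 114 CPM on day 0, 164 and 170.5 on day 2 and 249.6 and 229 on day 6. It rose by 0.55 (SE 0.07, adjusted p = 0.000241) and by a further 0.52, which was 0.16 and not called under library totals. Psmd4, a ubiquitin receptor, rose by 0.59 and then by 0.68, to 2.40-fold its day 0 level.

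In the lid, which holds the deubiquitinase Psmd14 and its scaffold, 7 of 8 subunits rose by day 2 and all 8 were higher at day 6 than at day 0. Psmd12 led at day 2: 53.9 and 56.7 CPM on day 0, 102 and 100.1 on day 2 and 119 and 116 on day 6. It rose by 0.87 (SE 0.06, adjusted p = 9.72e-06), and its later change was 0.22 with TMM factors (adjusted p = 0.0154) and -0.14 under library totals, and was not called under 6 of the 11 alternatives. Psmd8, a small lid subunit, stood at 123 and 135 CPM on day 0, 143 and 136 on day 2 and 228 and 223 on day 6. The day 2 libraries lay just above those of day 0, and the change of 0.11 did not pass the test (SE 0.08, adjusted p = 0.226). It was called under library totals (0.22, adjusted p = 0.0399) and without library 77 of day 0 (0.33, adjusted p = 0.0314). By day 6 Psmd8 had risen by 0.80 against day 0 (SE 0.08, adjusted p = 2.56e-05). Psmd14 rose by 0.62 and 0.96 at days 2 and 6 against day 0.

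The 3 chaperones that assemble the base of the cap had a median log2 change of 0.32 at day 2 and 0.49 at day 6 against day 0, and 0.22 from day 2 to day 6. Psmd5 stood at 34.9 and 36.9 CPM on day 0, 48.5 and 48.5 on day 2 and 57.3 and 55.3 on day 6, a rise of 0.43 (SE 0.07, adjusted p = 0.000579) by day 2. Its later change was 0.22 (adjusted p = 0.0206), and -0.14 under library totals, and was not called under 8 of the 11 alternatives. Psmd10, also called gankyrin, stood at 17.4 and 16.6 CPM on day 0, 19.98 and 19.1 on day 2 and 23.2 and 24.7 on day 6. The day 2 change of 0.20 did not pass (SE 0.09, adjusted p = 0.0768), but was called under library totals (0.31, adjusted p = 0.0199) and RLE factors (0.24, adjusted p = 0.0379). Day 6 was higher than day 0 by 0.49 (SE 0.09, adjusted p = 0.00117) and than day 2 by 0.29, which was -0.07 under library totals and was not called under 6 of the 11 alternatives. Psmd9 rose by 0.32 at day 2. Its exons overlap those of Gm26745 on the other strand over 25.5% of their length, its day 2 call was lost without library 76 of day 2 (adjusted p = 0.0503), and its day 6 call under 4 of the 11 alternatives.

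**Figure D4:**
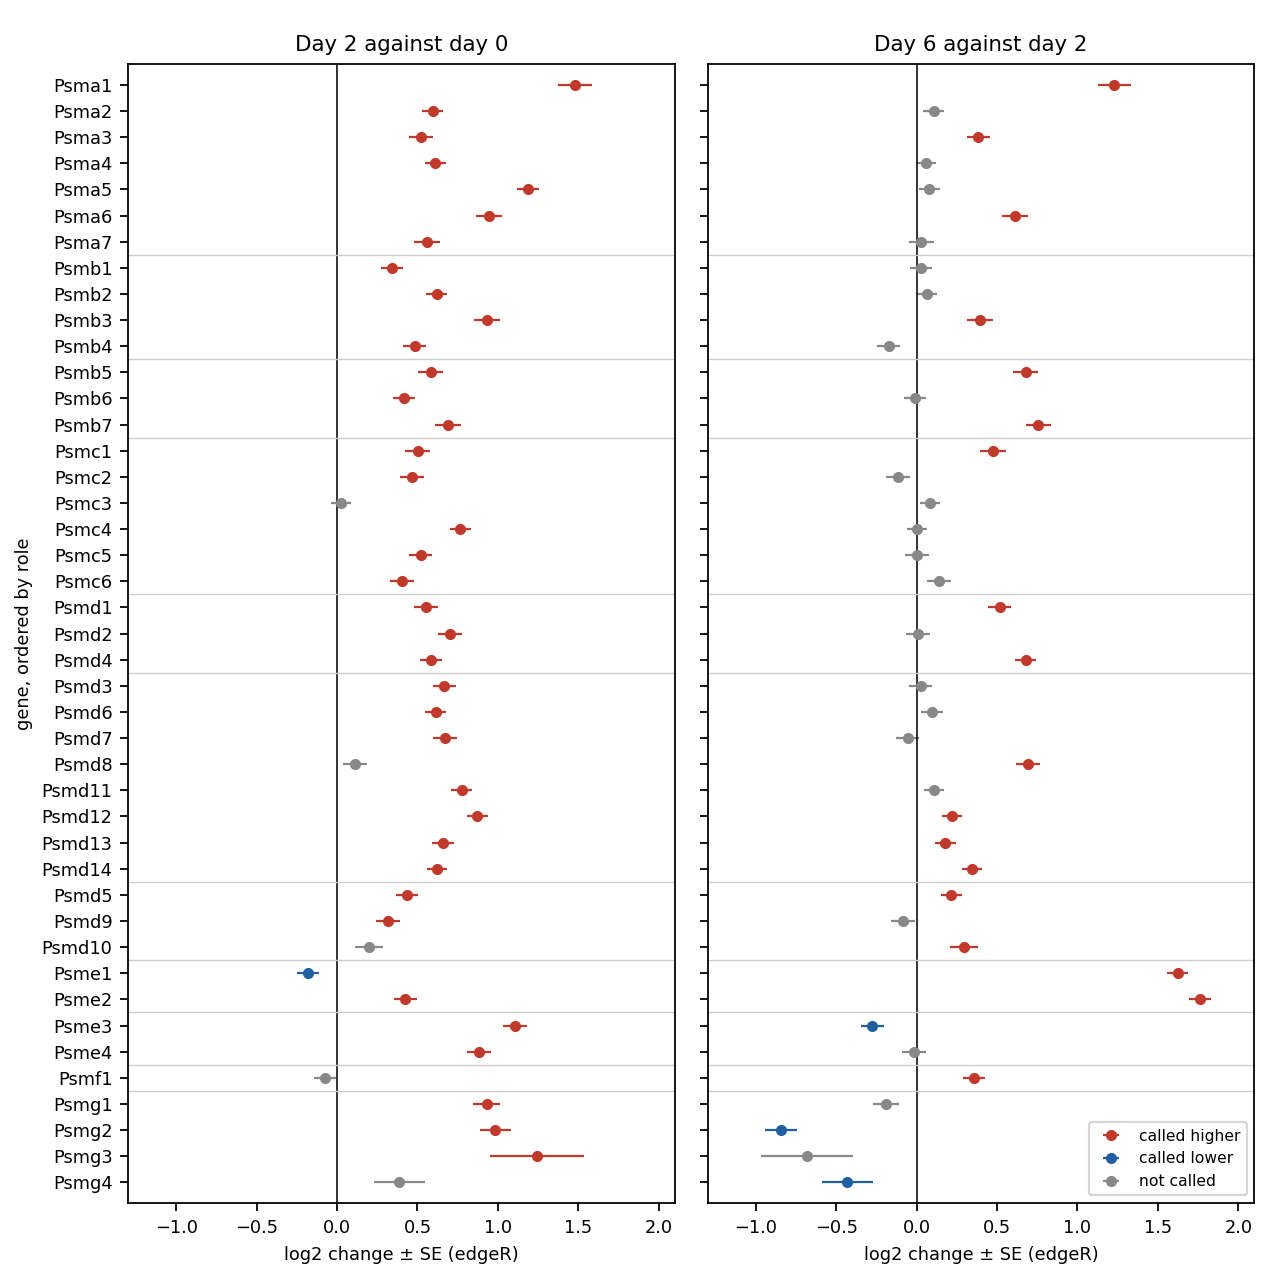
Fitted log2 change with its SE (horizontal axis) of each of the 43 tested proteasome genes (vertical axis, ordered by role) for day 2 against day 0 on the left and day 6 against day 2 on the right, with TMM scaling. Red and blue mark calls at an adjusted p of 0.05. On the left 37 genes are red and Psme1 is blue, and on the right 18 are red and 3 blue, a split that became 8 and 26 under library totals.

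The alternative caps moved in 2 ways. PA28 alpha and beta, the products of Psme1 and Psme2, form a cap known to be induced by interferon gamma and tied to antigen processing. Psme1 stood at 38.6 and 39.1 CPM on day 0, 33.2 and 35.4 on day 2 and 105 and 106 on day 6. The day 2 libraries lay below both of day 0 and those of day 6 above all others. The small fall of 0.18 at day 2 (SE 0.07, adjusted p = 0.0427) was lost under 8 of the 11 alternatives, with adjusted p-values from 0.0376 to 0.855 over them. The later rise was 1.62 (SE 0.07, adjusted p = 4.77e-07), and 1.26 under library totals.

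Psme2 stood at 49.6 and 46.6 CPM on day 0, 66.1 and 63.2 on day 2 and 219 and 219.5 on day 6. It rose by 0.43 (SE 0.07, adjusted p = 0.000712) at day 2 and by 1.76 (SE 0.07, adjusted p = 4.08e-07) afterwards, the largest change of any member in that step. Against day 0 it was 4.56-fold higher at day 6 and Psme1 was 2.72-fold higher. The copy Psme2b and others share 28.3% of the stretches of 50 bases in Psme2, so some of its reads may not have been assigned.

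Psme3 and Psme4 had their main rise in the induction phase. Psme3, PA28 gamma of the nucleus, stood at 88.7 and 85.6 CPM on day 0, 194 and 182 on day 2 and 161 and 150.0 on day 6. It rose by 1.11 (SE 0.07, adjusted p = 5.78e-06) and fell by 0.28 on the log2 scale afterwards (SE 0.07, adjusted p = 0.0104). Without library 76 of day 2 that fall was not called (adjusted p = 0.0798). Psme4, PA200, stood at 78.9 and 81.7 CPM on day 0, 142 and 154 on day 2 and 152 and 141 on day 6, a rise of 0.88 (SE 0.08, adjusted p = 2.07e-05) after which the days overlapped, with a later change of -0.02, called at -0.38 under library totals. Psmf1, PI31, which binds the core and is known as an inhibitor in vitro, stood at 32.4 and 31.9 CPM on day 0, 30.3 and 30.7 on day 2 and 39.6 and 38.5 on day 6. Its change at day 2 was -0.08 (adjusted p = 0.366), and it was higher at day 6 by 0.28 (SE 0.07, adjusted p = 0.00676), a call lost under library totals (0.03).

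The 4 chaperones that assemble the core each had their highest mean at day 2. Psmg1 and Psmg2 form a pair that gathers the alpha ring. Psmg2 stood at 12.9 and 11.5 CPM on day 0, 24.98 and 23.5 on day 2 and 13.3 and 13.7 on day 6. Its day 2 libraries stood above all others, with a rise of 0.98 (SE 0.10, adjusted p = 4.74e-05) and a fall by 0.85 (SE 0.10, adjusted p = 0.000117). Day 6 differed from day 0 by 0.14 (adjusted p = 0.261, and -0.11 under library totals). Psmg1 rose by 0.93 at day 2 and was still 1.67-fold above day 0 at day 6.

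Psmg3 and Psmg4, a second pair that helps to close the alpha ring, had low counts. Psmg3 had 41 and 65 counts on day 0 (1.36 and 2.68 CPM), 132 and 136 on day 2 (4.49 and 4.89 CPM) and 70 and 54 on day 6 (3.13 and 2.69 CPM). The day 0 libraries lay far apart but below both day 2 libraries, and the rise was 1.24 with an SE of 0.29 (adjusted p = 0.00545), 0.81 without library 76 of day 0 and 1.93 without library 77 of day 0. The later change was -0.68 (SE 0.29, adjusted p = 0.0643), and passed under library totals, RLE factors and no filter (-1.04, -0.75 and -0.69) and without either library of day 0 (-0.69 and -0.82). Psmg4 stood at 6.72 and 5.72 CPM on day 0, 7.75 and 8.59 on day 2 and 6.61 and 5.48 on day 6. Its day 2 change was 0.39 (SE 0.16, adjusted p = 0.0559), called under library totals (0.50), RLE factors (0.43) and no filter (0.40) and without either library of day 6 (0.39 and 0.40), and it fell by 0.43 afterwards (SE 0.16, adjusted p = 0.0431), a call lost in 4 of the 6 fits that left out 1 library.

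Set side by side, the core had a median of 0.60 at day 2 and 0.80 at day 6 against day 0, while its 4 chaperones had 0.96 and 0.35, values that share the day 0 libraries. Per kilobase the chaperones stood at 2.28 (Psmg3) to 14.3 (Psmg1) CPM per kb at day 0, below every core subunit.

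Other genes of the pathway were counted from lists, beside the same shares of all genes as above. Of the 4 measured subunits and chaperones with other names, 3 rose at day 2: Pomp, which matures the core, by 0.77, the ubiquitin receptor Adrm1 by 0.44 and the cap subunit Shfm1 by 0.27. The 1 that fell was Akirin2, a carrier of proteasomes into the nucleus, by 0.66 on the log2 scale. Pomp stood at 57.1 and 61.1 CPM on day 0, 102 and 99.7 on day 2 and 125 and 113 on day 6.

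The immunoproteasome subunits Psmb8, Psmb9 and Psmb10, which replace the 3 catalytic subunits, went the other way at day 2. All 3 fell, with log2 changes of -1.82, -0.86 and -0.91, and all 3 rose afterwards, by 1.43, 1.62 and 1.70. Psmb10 stood at 23.6 and 19.1 CPM on day 0, 10.8 and 12.1 on day 2 and 37.4 and 37.0 on day 6. Their share of the reads of the 6 catalytic subunits was 14.5% ± 1.86 at day 0, 5.22% ± 0.466 at day 2 and 10.9% ± 0.782 at day 6.

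Of 12 interferon response genes 10 fell at day 2 and all 12 rose between days 2 and 6, with Ifit3 at 44.2 and 22.6 CPM on day 0, 0.680 and 1.15 on day 2 and 23.3 and 39.0 on day 6. At day 6 against day 0, 4 of the 12 were higher and 8 were not called, with a median of 0.12. Psme1 and Psme2 are the members that rose most between days 2 and 6, and the part of interferon genes in their rise was not tested. The summed interferon genes were higher in library 77 than in library 76 of day 6 (1095 against 855 CPM), while the level of Psme2 in those libraries was 219.5 and 219.

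Nfe2l1, which encodes the transcription factor named above, stood at 470 and 472 CPM on day 0, 414 and 406 on day 2 and 893 and 819 on day 6. At day 2, when 37 members were higher, its change was -0.20 (SE 0.08, adjusted p = 0.0616), and between days 2 and 6 it rose by 1.06 (SE 0.08, adjusted p = 1.08e-05). RNA levels do not show the processing and stability through which that factor is mainly known to be controlled. The part of Nfe2l1 in the members' changes was not tested. Of the 11 genes of that list, 3 rose (Nfe2l3, Ddi2 and Mafg) and 2 fell (Maff and Mafk) at day 2, with Nfe2l3 at 0.132 and 0.165 CPM on day 0 and 0.748 and 0.360 on day 2.

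Among 8 enzymes and adaptors bound to the proteasome 7 rose at day 2, led by the deubiquitinase Uchl5 (log2 1.47, from 12.7 and 12.1 to 37.5 and 31.6 CPM). Of 6 ubiquitin shuttles 5 rose, led by Ubqln1 (1.12, and 2.27 at day 6). In the complex of the unfoldase p97, 3 of 7 rose at day 2 (Nploc4, by 0.48, Vcp and Ufd1l) and 6 of 7 were higher at day 6 than at day 0.

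Other assemblies gave other courses. All 8 subunits of the CCT chaperonin rose at day 2 (median 0.87, led by Cct3 with 1.13) and all 8 fell afterwards (median -0.77). Of 9 COP9 signalosome subunits, relatives of the 19S lid, 7 rose at day 2, led by Cops3 (0.73). Of 12 autophagy genes 3 rose and 5 fell at day 2, Gabarap most, by 1.09 on the log2 scale, and 9 rose afterwards. These counts were not tested against those of the proteasome members.

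**Figure D5:**
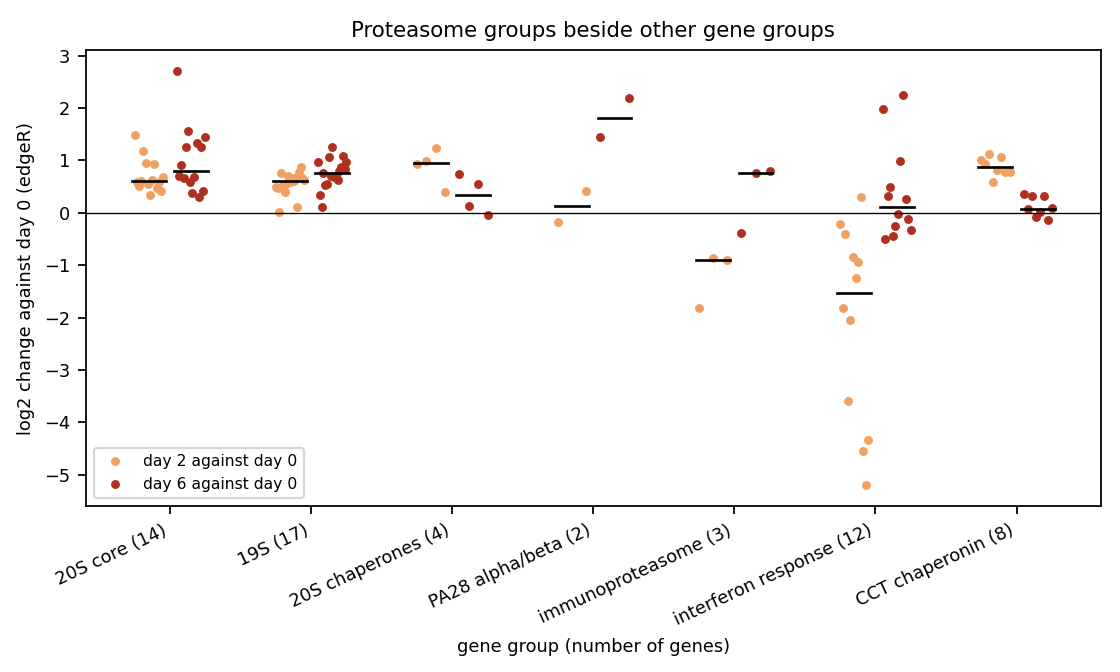
Fitted log2 change against day 0 (vertical axis) of each gene in 7 groups (horizontal axis, with the number of genes), at day 2 (orange) and day 6 (red), with a black line for the median. The 14 core and 17 cap subunits lie above 0 at both days, the immunoproteasome genes lie below 0 at day 2, and the CCT genes lie above 0 at day 2 and near 0 at day 6.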

How the data were processed

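RNA was captured on oligo-dT beads and sequenced in 6 libraries, per the labels' protocols. The submitters' processing notes name TopHat2 2.0.13 and HTSeq 0.9.1 as tools, and the builds mm10 and GRCm38, while annotation, strand and counting mode were not given in the sources used here. All deposited values are raw counts per gene, although their columns are named RPKM: they are whole numbers and end in HTSeq's summary lines, which stayed out of library sizes and tests. Those lines held 4.16% to 9.05% of alignments as not unique, 4.40% to 4.91% as ambiguous and 2.62% to 3.23% outside any gene. Reads carry no molecular identifiers, so floors cover counting error only.

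Groups are the days in the library titles. All 45808 genes entered edgeR 4.0.16 (R 4.3.3) with TMM factors (0.849 to 1.12) and filterByExpr, which kept 14459. The quasi-likelihood F test used 1 mean per day, no covariate, 3 residual degrees of freedom and Benjamini-Hochberg adjusted p-values over the whole table, called below 0.05. On simulated counts of 13838 genes for day 2 against day 0, 74.6% of 1.5-fold and 100% of 2-fold and 4-fold changes were recovered and 3.17% of calls were false. The simulation gave every gene and day the same spread, changed few genes and left day 6 like day 0, so these rates may not hold for the data. Alternatives were library totals, RLE factors, DESeq2 1.42.0, no filter, a replicate block and each library left out. The numbers 76 and 77 were not taken to pair the libraries, and the tests have no block.

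The members, roles, pathway and marker lists were chosen with earlier results of these data known. Values per library are given for the catalytic subunits, for the tested member with the highest and the lowest day 2 change in each role, for members called against the majority and for untested members. Genes named from the lists, some by their change alone, were Nfe2l1, Psmb8, Psmb9, Psmb10, Pomp, Adrm1 and the largest day 2 change of every other list reported. Other genes named with values were chosen after these were seen. Overlaps, shared stretches of 50 bases and transcript lengths came from GENCODE M21, and levels per kilobase divide CPM by the longest principal transcript. One pathway list is not reported here.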

Additional observations from a re-analysis of the deposited data

How the results depend on the processing

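The scale set the step from day 2 to day 6. Library totals alone gave 8 higher and 26 lower members, against 18 and 3 with TMM factors, and RLE factors gave 6 lower. Leaving out 1 library gave 11 to 17 higher and 1 to 7 lower. The median of the tested members, 0.094, was -0.265 under library totals and ran from -0.048 (without library 77 of day 0) to 0.126 with a library left out; the cause was not tested. The single member lower at day 2, Psme1, gave a count of 0 under library totals, RLE factors, DESeq2 and no filter, and 0 to 1 with a library left out. The numbers 76 and 77 were not shown to pair the libraries: across genes, deviations from the day means of same-numbered libraries had Pearson's r of 0.109, 0.112 and 0.213 and Spearman's rho of 0.059, 0.055 and 0.177 for days 0 and 2, 0 and 6, and 2 and 6. With the replicate block, which treats the numbers as pairs, 38 members rose and 1 fell at day 2, 39 rose at day 6 against day 0, and 18 rose and 4 fell from day 2 to day 6; Psmg4 at day 2 and Psmg3 in the later step were newly called and no other call of a named member changed.

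Against day 0, estimates at day 6 changed sign for Psmc3 (-0.139) and Psmg2 (-0.107) under library totals, and ran from -0.181 to 0.092 for Psmg4 with a library left out (above 0 without library 76 of day 0 or library 77 of day 6). From day 2 to day 6 under library totals they did so for Psmb1 (-0.331), Psmc3 (-0.274), Psmc4 (-0.356), Psmd10 (-0.065), Psmd12 (-0.139), Psmd2 (-0.352) and Psmd5 (-0.143). RLE factors and DESeq2 gave -0.042 for Psmb1, -0.068 for Psmc4 and -0.063 for Psmd2, and no filter gave -0.005 for Psmc4 and -0.001 for Psmd2. With a library left out in turn, this step ran from -0.109 to 0.073 for Psmb1, -0.147 to 0.045 for Psmb6, -0.053 to 0.095 for Psmc3, -0.135 to 0.03 for Psmc4, -0.13 to 0.045 for Psmd2 and -0.153 to 0.036 for Psme4. Of the values for named members in single alternatives, 638 kept direction and side of the threshold, 36 fell below it, 20 rose above it and 32 changed sign. Counts are too low to place Psma8 or Psmb11 in any comparison.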
